A study of Mus musculus with 8 samples.

Results

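The choroid plexus transcripts examined here are 9 genes used as markers of the choroid plexus epithelium: Ttr, Folr1, Kl, Aqp1, Enpp2, Clic6, Otx2, Sostdc1 and Igf2. Every probe whose symbol in the platform's probe table was one of these names was taken, which gave 12 of the 25697 probes, for 8 of the 9 genes. Enpp2, the secreted lysophospholipase autotaxin, had 0 probes under its name and is not described further. All 12 probes were among the 15494 kept by the detection filter, and Folr1 and Kl had 2 probes each and Aqp1 had 3.

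RNA came from the hypothalamus of male mice of 12 to 15 weeks, of a strain given only as mixed, and was hybridised to Illumina MouseRef-8 v2 bead arrays, 1 array per sample. The saline control group held 2 samples (replicates 4 and 5). The STZ group held 3 (replicates 1, 2 and 3), from mice made diabetic with streptozotocin, a toxin of the insulin-producing beta cells of the pancreas. The leptin group held 3 samples of STZ mice that also received a continuous central infusion of leptin (replicates 6, 7 and 8). The labels give neither a dose nor a duration, and no saline group with leptin was analysed here. They do not say whether each array held a separate animal, so the spread that p-values rest on may be technical. The description of STZ replicate 3 repeats the number of STZ replicate 1, and it was taken as STZ from its title. The descriptions number the saline arrays 2 and 3, with no number 1, and the labels do not settle whether a sample is misnamed. Over the kept probes, STZ replicate 3 had a Pearson's r of 0.979 and 0.989 with STZ replicates 1 and 2. With saline replicates 4 and 5 its r was 0.957 and 0.962. Tissue was taken as hypothalamic blocks cut from fresh brain, and the labels do not record which ventricular or surface structures stayed attached. Of 13 hypothalamic markers, 12 were detected on all 8 arrays, among them Pmch, Hcrt, Avp and Oxt, and Sim1 was detected on 0. Between 13608 and 14776 probes were detected per array, and the number of arrays limits the precision.

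The choroid plexus is a sheet of secretory epithelium that hangs into the brain ventricles, makes most of the cerebrospinal fluid and forms the barrier between blood and that fluid. A strand of it lies in the roof of the midline ventricle that the hypothalamus borders. Its cells transcribe Ttr at a level reached by few genes of the brain. Ttr encodes transthyretin, which carries thyroxine and, with its partner protein, retinol. Folr1, folate receptor alpha, takes folate across the epithelium, Aqp1 is its apical water channel and Clic6 belongs to the intracellular chloride channel family. Kl encodes klotho, a co-receptor for the hormone FGF23 that also circulates in a shed form. Otx2 is a homeobox transcription factor that choroid plexus development and upkeep require. Sostdc1 is a secreted inhibitor of BMP and Wnt signals, and Igf2 is a growth factor made by both the choroid plexus and the leptomeninges, the thin membranes on the brain surface.

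Promoter windows of 300 bases, from 250 before to 50 after a gene start, were taken from a RefSeq table of assembly GRCm38.p6. For the 9 genes, any window on the chromosome that holds Ttr was left out. On the other chromosomes 4 of the 9 genes had windows: Kl, Aqp1, Otx2 and Igf2, with 10 windows in all. They were searched for TAATCC, the core bound by OTX2-type homeodomains, on both strands. The letters occurred in 2 of the 10 windows, as GGATTA on the gene's strand. They occurred in 7.1 percent of all 32851 windows of the table, where no chromosome was left out. The windows of Kl and Aqp1 are shown because these genes had wide ranges between arrays, and those of Otx2 and Igf2 because they hold the letters, printed in capitals. A match is a description of the letters only. The Kl window lies at chr5:150952357-150952656 on the plus strand and the Aqp1 window at chr6:55336049-55336348 on the plus strand. The Otx2 window, number 3 of 4, lies at chr14:48665060-48665359 on the minus strand, with its match starting at position -211 from the gene start. The Igf2 window, number 3 of 4, lies at chr7:142658755-142659054 on the minus strand, with its match starting at position 11.
Kl: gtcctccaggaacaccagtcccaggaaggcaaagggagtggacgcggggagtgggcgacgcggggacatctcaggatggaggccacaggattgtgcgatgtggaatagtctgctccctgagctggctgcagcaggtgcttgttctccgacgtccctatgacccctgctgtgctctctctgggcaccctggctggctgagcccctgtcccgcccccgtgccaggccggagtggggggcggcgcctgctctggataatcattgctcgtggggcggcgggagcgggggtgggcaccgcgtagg
Aqp1: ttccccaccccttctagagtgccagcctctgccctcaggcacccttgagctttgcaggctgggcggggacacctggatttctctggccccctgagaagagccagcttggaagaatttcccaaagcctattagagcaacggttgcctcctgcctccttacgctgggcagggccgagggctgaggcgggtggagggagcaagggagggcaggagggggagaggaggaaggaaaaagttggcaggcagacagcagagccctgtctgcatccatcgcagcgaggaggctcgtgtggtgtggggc
Otx2: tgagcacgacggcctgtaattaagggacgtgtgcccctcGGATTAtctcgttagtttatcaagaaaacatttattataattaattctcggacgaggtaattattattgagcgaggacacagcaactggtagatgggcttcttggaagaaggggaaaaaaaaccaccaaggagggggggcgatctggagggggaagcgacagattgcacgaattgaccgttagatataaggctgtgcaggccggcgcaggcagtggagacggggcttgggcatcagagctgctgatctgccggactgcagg
Igf2: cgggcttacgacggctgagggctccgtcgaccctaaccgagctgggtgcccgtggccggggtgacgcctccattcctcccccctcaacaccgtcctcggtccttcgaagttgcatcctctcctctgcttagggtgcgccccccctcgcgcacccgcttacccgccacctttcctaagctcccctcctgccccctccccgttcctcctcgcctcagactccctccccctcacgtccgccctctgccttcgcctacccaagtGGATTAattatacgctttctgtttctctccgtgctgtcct

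The 8 genes varied widely between arrays of the same group, and for 7 of them the same 4 arrays held the highest values and the same 4 the lowest. STZ replicate 1 and the 3 leptin arrays held low values, and STZ replicates 2 and 3 and both saline arrays held high ones. In bulk tissue, fewer cells of a type and less RNA per cell cannot be told apart. Values are log2 signals after background correction and quantile normalization, and a gene is described by its probe of highest mean signal unless a second probe is named.

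Ttr stood at 13.71 and 14.75 in saline, at 8.74, 14.77 and 14.84 in STZ replicates 1 to 3, and at 9.62, 9.87 and 11.97 in leptin replicates 6 to 8. STZ replicate 1 lay below every leptin array, and STZ replicates 2 and 3 lay above both saline arrays. The whole range of 6.09 log2 units is 68.2-fold. As deposited, before any correction, the intensity of the Ttr probe was 538.9 in STZ replicate 1 and 30588.7 in STZ replicate 2. All 8 arrays detected it.

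Kl had 7.62 and 9.44 in saline, 5.82, 9.24 and 8.50 in STZ, and 5.72, 6.21 and 6.08 with leptin. Its STZ replicate 1 value fell inside the leptin range, and the other STZ values fell inside the saline range. Folr1 had 6.75 and 8.26 in saline, 5.34, 8.33 and 8.19 in STZ, and 4.87, 5.29 and 5.38 with leptin, where replicate 6 did not detect it. Its second probe gave 6.38 and 8.16, then 4.99, 8.39 and 8.07, then 5.07, 5.49 and 5.46 in the same order. Both Folr1 probes placed the same 4 arrays low.

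Aqp1 had 6.93 and 8.52 in saline, 4.96, 8.06 and 7.59 in STZ, and 5.20, 4.54 and 5.29 with leptin. The probe was not detected in STZ replicate 1 or leptin replicate 7. Aqp1 probes 2 and 3 were dimmer, with ranges over the 8 arrays of 2.54 and 1.51 log2 units against 3.98 for the first. Neither was detected in STZ replicate 1 or on any leptin array, and probe 3 was also not detected in saline replicate 4, so their low end is the background. The second Kl probe was detected on 2 arrays, STZ replicate 2 and saline replicate 5, the pair highest for the first Kl probe.

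**Figure D1:**
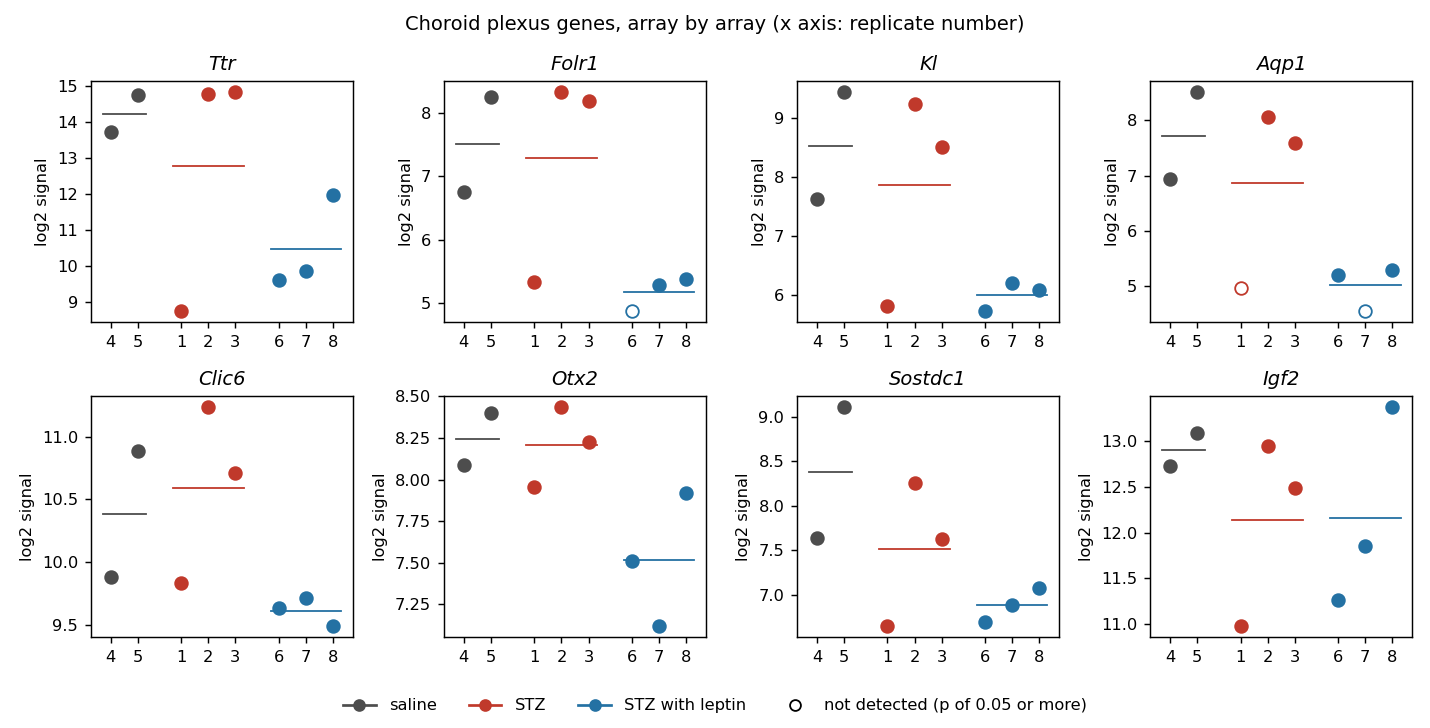
Log2 signal (y axis) of the highest-signal probe of each of the 8 genes on each array (x axis, replicate numbers: saline 4 and 5, STZ 1 to 3, STZ with leptin 6 to 8). Lines are group means, open circles mark arrays with a detection p-value of 0.05 or more, and each panel has its own scale. STZ replicate 1 lies low in every panel, between the leptin and the saline arrays for Clic6 and Otx2, and leptin replicate 8 is high for Igf2.

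Sostdc1, Clic6 and Otx2 kept the order in smaller steps. Sostdc1 had 7.64 and 9.11 in saline, 6.64, 8.26 and 7.62 in STZ and 6.69, 6.89 and 7.08 with leptin. Clic6 had 9.88 and 10.88 in saline, 9.83, 11.24 and 10.71 in STZ and 9.63, 9.71 and 9.49 with leptin, so that saline replicate 4 and STZ replicate 1 differed little. Otx2 ranged least, with 8.09 and 8.40 in saline, 7.96, 8.44 and 8.22 in STZ and 7.51, 7.12 and 7.92 with leptin. Clic6 and Otx2 were detected on all 8 arrays, and their lowest values, 9.49 and 7.12, lay well above the background that Aqp1 and Folr1 reached.

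Igf2 departed from the other 7. It had 12.73 and 13.10 in saline, 10.97, 12.95 and 12.49 in STZ, and 11.26, 11.85 and 13.38 with leptin. Leptin replicate 8, low for Kl, Folr1 and Aqp1, held the highest Igf2 value of the 8 arrays. On that array the 19 measured meningeal genes lay at a median of 0.10 from the saline mean, against -1.71 for the 8 choroid plexus genes. In leptin replicates 6 and 7 the meningeal median was -0.90 and -0.40, in STZ replicates 1, 2 and 3 it was -0.61, 0.33 and -0.05, and in the saline arrays -0.07 and 0.07.

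Over the 8 arrays, Igf2 had a Pearson's r of 0.91 with the mean z-score of the meningeal genes. With that of the other choroid plexus genes its r was 0.65. The other choroid plexus genes had an r with the meningeal mean from 0.59 for Otx2 to 0.85 for Ttr. The meningeal genes of highest signal did not all share 1 pattern. Against saline, leptin replicate 8 held 8 of the 19 above the higher saline array and 5 below the lower one, and leptin replicate 6 held 2 and 14. Ptgds, a prostaglandin synthase and the meningeal gene of highest signal, had 13.24 and 13.27 in saline, 11.42, 13.36 and 13.20 in STZ and 12.25, 13.18 and 12.93 with leptin. Its lowest array was STZ replicate 1, as for Igf2, but its highest leptin array was replicate 7. Dcn, the matrix proteoglycan decorin, had 10.84 and 10.76 in saline, 10.87, 11.97 and 11.52 in STZ and 9.76, 10.21 and 11.14 with leptin. Bgn, the related biglycan, had 9.43 and 9.43, then 9.28, 10.22 and 9.77, then 8.84, 8.996 and 9.92. Both were highest in leptin replicate 8 among the leptin arrays, as Igf2 was, while Dcn was not low in STZ replicate 1. Slc13a3, a dicarboxylate transporter, had 7.52 and 7.55 in saline, 9.35, 8.86 and 9.79 in STZ and 8.23, 8.62 and 9.22 with leptin. It stood above saline on every other array and rose in STZ by 1.80 ± 0.32 (SE, adjusted p = 0.013 in limma), the 1 meningeal gene to pass in any comparison. That is 5.26 percent of the 19 in STZ against saline, against 4.29 percent of all kept probes.

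**Figure D2:**
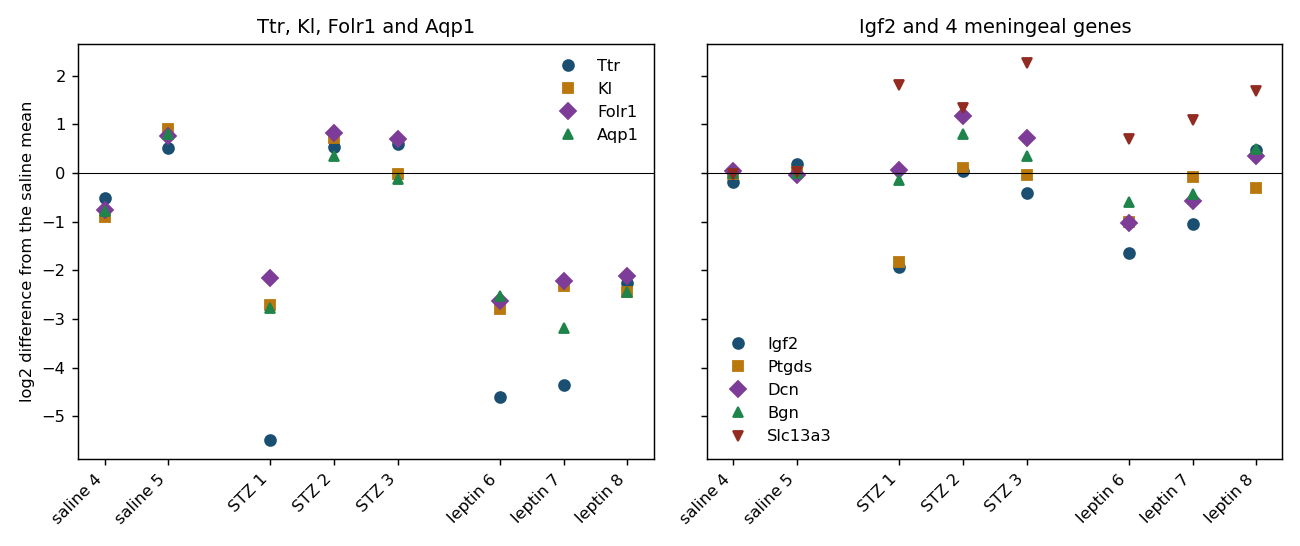
Log2 difference from the saline mean (y axis) on each array (x axis) for Ttr, Kl, Folr1 and Aqp1 (left) and for Igf2 and the meningeal genes Ptgds, Dcn, Bgn and Slc13a3 (right). On the left the 3 leptin arrays and STZ replicate 1 lie low together, and on the right the genes differ in which arrays are low, with Slc13a3 above 0 on all STZ and leptin arrays.

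The spread within groups was measured as the residual standard deviation of the 3-group fit, with 5 degrees of freedom. It was 2.38 log2 units for Ttr, 1.28 for Kl, 1.20 for Aqp1, 1.18 for Folr1, 0.96 for Igf2, 0.71 for Sostdc1, 0.55 for Clic6 and 0.31 for Otx2, against a median of 0.21 over the 15494 kept probes. Ttr stood at percentile 99.96 of the kept probes, Clic6 at 96.7 and Otx2 at 78.3. By group, the median standard deviation of the 8 genes was 0.89 in saline, 1.35 in STZ and 0.34 with leptin, against 0.11, 0.21 and 0.17 for all kept probes. The genes differed in this: Folr1, Kl, Aqp1, Clic6 and Sostdc1 had their smallest standard deviation with leptin, where Folr1 and Aqp1 lay near background. Otx2 and Igf2 had their largest with leptin, 0.40 and 1.09 against 0.22 and 0.26 in saline, and Ttr had 1.29 with leptin against 0.74 in saline.

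STZ against saline (3 and 2 arrays) asks what diabetes changed. Of the 12 probes 0 passed at an adjusted p of 0.05 in limma, where 4.29 percent of all kept probes passed, and 0 were lower at an unadjusted p under 0.05, against 6.5 percent. The STZ arrays lay wholly below the saline arrays for 0 of the 12, against 19.5 percent. The difference was below 0 for 11 of the 12, where 65.7 percent of all kept probes had one below 0. Ttr had means of 12.78 ± 3.50 (SD, n = 3) and 14.23 ± 0.74 (SD, n = 2), a difference of -1.45 ± 1.63 (SE, adjusted p = 0.75 in limma). Its 95 percent interval ran from -5.14 to 2.25, so neither a large fall nor a rise was outside what these arrays allow. Intervals were narrower for Otx2, from -0.60 to 0.52, and for Clic6, from -0.69 to 1.11. The median difference of the 8 genes was -0.72, against -0.09 for all kept probes. Without STZ replicate 1 the Ttr difference was 0.57 and those of Folr1, Kl and Aqp1 were 0.76, 0.34 and 0.10. Each was of the opposite sign to the difference with all arrays, as was Otx2 at 0.09. Sostdc1 at -0.43, Igf2 at -0.19 and the second Kl probe at -0.17 stayed below 0. In that fit 0 of the 12 probes passed, against 6.62 percent of all kept probes.

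STZ with leptin against STZ (3 and 3 arrays) asks what central leptin changed in diabetic mice. All genes other than Igf2 had lower means with leptin, which made 11 of the 12 probes against 45.8 percent of all kept probes. Again 0 of the 12 probes passed in limma, against 5.62 percent of all kept probes. At an unadjusted p under 0.05, 6 of the 12 were lower, for 5 genes, against 10.1 percent. Leaving out STZ replicate 1 raised the number of probes under that p to 11, leaving out either other STZ array brought it to 1, and leaving out any leptin array to 3. Folr1 differed by -2.11 ± 0.73 (SE, adjusted p = 0.15 in limma), Aqp1 by -1.86 ± 0.74 (0.21), Kl by -1.85 ± 0.79 (0.24) and Ttr by -2.30 ± 1.46 (0.44). Clic6 differed by -0.98 ± 0.36 (0.17) and Otx2 by -0.69 ± 0.22 (0.12). Sostdc1 differed by -0.63 ± 0.44 (0.50) and Igf2 by 0.03 ± 0.60 (0.99). The sizes for genes near background depended on the correction: with none, Folr1 differed by -1.21 and Aqp1 by -1.03, and with the authors' processed values by -1.21 and -1.02. The leptin arrays lay wholly below the STZ arrays for 4 of the 12 probes, those of Clic6 and Otx2 and Aqp1 probes 2 and 3, against 11.1 percent of all kept probes. Neither Aqp1 probe was detected on the leptin arrays or in STZ replicate 1.

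The calls in this comparison depended on the arrays used and, among single arrays left out, most on STZ replicate 1. That array was seen to lie low on these genes, so p-values of fits without it can be too small. Without STZ replicate 1, 7 of the 12 probes passed as lower with leptin, for 5 genes, against 7.85 percent of all kept probes that passed in either direction. Ttr then differed by -4.32 ± 0.66 (SE, adjusted p = 0.0079 in limma), or 19.9-fold lower, Folr1 by -3.08 ± 0.39, Kl by -2.87 ± 0.49, Aqp1 by -2.82 ± 0.45 and Clic6 by -1.36 ± 0.29. Leaving out another STZ array made the differences smaller: Ttr then differed by -1.30 without STZ replicate 2 and -1.27 without STZ replicate 3, and without STZ replicate 2 Kl differed by -1.16 and Sostdc1 by -0.25. Array weights were 0.279, 0.668 and 2.49 for STZ replicates 1, 2 and 3, so the weighted STZ mean rested mostly on replicate 3. For leptin replicates 6, 7 and 8 they were 1.42, 1.06 and 0.672. With these weights 8 of the 12 passed, against 12 percent of all kept probes. Without leptin replicate 8 only Otx2 passed, at an adjusted p of 0.0497 in limma, against 5.01 percent of all kept probes, and without any 1 of the other 6 arrays 0 passed.

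STZ with leptin against saline (3 and 2 arrays) asks what remained different from controls under leptin. Every one of the 8 genes had a lower mean with leptin, as did all 12 probes against 56.4 percent of all kept probes, yet 0 of the 12 passed in limma, against 2.03 percent of all kept probes. At an unadjusted p under 0.05, 9 of the 12 were lower, for 6 genes, against 6.05 percent, and the leptin arrays lay wholly below the saline arrays for 11 of the 12, against 20.2 percent. Without saline replicate 5 the count at an unadjusted p under 0.05 was 0, and without any 1 other array it was 7 to 11. Probes of 1 gene measure the same transcript, and the 8 genes move together between arrays, so these counts are not separate observations. Ttr differed by -3.75 ± 1.63 (SE, adjusted p = 0.41 in limma), Aqp1 by -2.72 ± 0.83 (0.20), Kl by -2.52 ± 0.89 (0.28), Folr1 by -2.32 ± 0.82 (0.28) and Sostdc1 by -1.49 ± 0.50 (0.25). With no background correction Folr1 differed by -1.25 and Aqp1 by -1.50, and with the authors' processed values by -1.25 and -1.49. Without saline replicate 5 Kl differed by -1.62, Sostdc1 by -0.76 and Clic6 by -0.27, the last against -0.77. The second Aqp1 probe, not detected on any leptin array, had measured means of 6.40 in saline and 4.69 with leptin (adjusted p = 0.22 in limma). With undetected signals raised to the lowest detected signal, its leptin mean was 2.30-fold lower. That fold allows for the background only and leaves out the spread between arrays. The interval of the measured difference ran from -2.94 to -0.49 log2 units, so a smaller fold was within what these arrays allow.

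Leaving out STZ replicate 1 does not touch the arrays compared here and alters only the estimated spread. That array lay farthest from its group on Ttr, Folr1, Kl and Aqp1, so p-values without it can be too small. Without it the Ttr difference stayed at -3.75 while its SE went from 1.63 to 0.66. Ttr, Folr1, Kl and Aqp1, with 1 probe each, then passed in limma at adjusted p-values of 0.029, 0.024, 0.042 and 0.021, against 2.68 percent of all kept probes. With array weights 4 probes passed, of Folr1, Kl and Aqp1, against 4.61 percent. This comparison and the one before share the leptin arrays, and the first and last share the saline arrays.

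**Figure D3:**
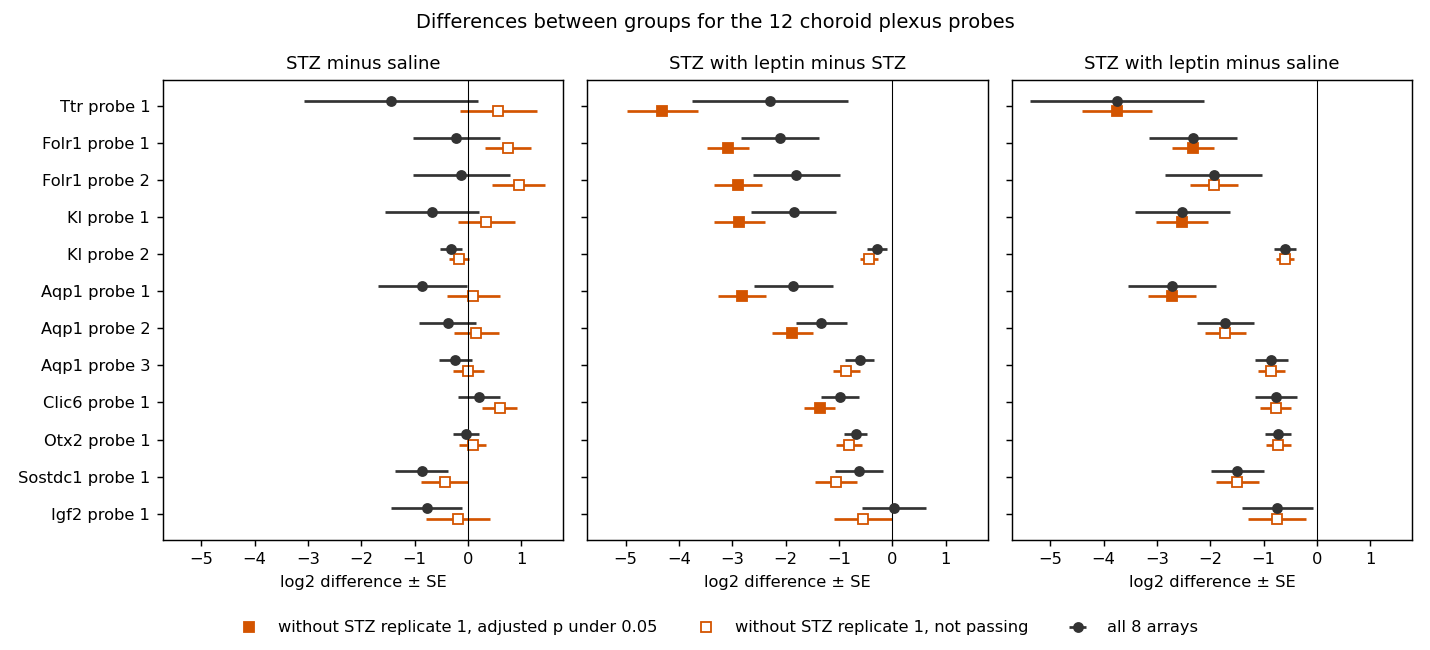
Log2 difference with its SE (x axis) for the 12 probes (y axis, probes of a gene numbered by mean signal) in the 3 comparisons. Circles use all 8 arrays, and 0 of them pass. Squares leave out STZ replicate 1, and filled squares have an adjusted p under 0.05 in limma: 0, 7 and 4 probes. That array lay farthest from its group on Ttr, Folr1, Kl and Aqp1, so p-values without it can be too small.

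Beyond the 8 genes, 51 other choroid plexus genes were listed, of which 44 had a probe and 36 were kept. As a list they followed the same arrays in smaller steps. Their median lay at -0.47 from the saline mean in STZ replicate 1, at 0.20 and -0.04 in STZ replicates 2 and 3, at -0.47, -0.43 and -0.44 with leptin, and at -0.21 and 0.21 in saline. In STZ against saline 1 of the 36 passed in limma, as higher, which is 2.78 percent against 4.29 percent of all kept probes. In leptin against STZ 2 passed, as lower, which is 5.56 percent against 5.62 percent. In leptin against saline 0 passed, against 2.03 percent. At an unadjusted p under 0.05 there were 4, 9 and 10 of the 36 in these comparisons, or 11.1, 25 and 27.8 percent, against 14.4, 19.4 and 11.9 percent of all kept probes. The medians of the differences were -0.04, -0.40 and -0.39, against -0.09, 0.03 and -0.04 for all kept probes.

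The genes that passed were Lbp and Tcn2. Lbp, which binds bacterial lipopolysaccharide and is induced in acute-phase responses, had 6.89 and 7.97 in saline, 8.89, 10.19 and 9.77 in STZ and 7.64, 7.44 and 7.81 with leptin. It rose in STZ by 2.18 ± 0.40 and fell with leptin by 1.98 ± 0.36 (SE, adjusted p = 0.015 and 0.013 in limma). STZ replicate 1, where Ttr was lowest, held Lbp above every saline and leptin array. Tcn2, the carrier of vitamin B12 into cells, fell with leptin by 0.72 ± 0.16 (adjusted p = 0.033 in limma), from 7.78, 8.29 and 8.10 in STZ to 7.21, 7.51 and 7.28.

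The 8 choroid plexus list genes of highest signal outside those were Vat1l, Slc12a2, Slc4a2, Cdkn1c, Cab39l, Slc13a4, Slc29a4 and Car14, and none of them passed in any comparison in limma. Vat1l and Slc12a2, a sodium, potassium and chloride cotransporter, ranged by 0.55 and 0.45 log2 units over the 8 arrays, below the median of 0.70 for all kept probes. Slc4a2, an anion exchanger, ranged by 0.70 and Cdkn1c, a cell cycle inhibitor, by 1.06. Over all 36 measured genes of the list the median range was wider, at 1.12. Of these, 21 ranged by more than 1 log2 unit, or 58.3 percent, against 23.9 percent of all kept probes. Such a share was not particular to choroid plexus genes. It was 63.6 percent for ependyma and tanycytes, 84.2 for meninges, 87.5 for pituitary and 100 for blood genes. For oligodendrocyte genes and for endothelium and pericytes it was 30.8 percent. Slc13a4, a sulfate transporter, had 9.98 and 10.37 in saline, 7.60, 10.39 and 10.06 in STZ and 7.57, 9.29 and 10.01 with leptin, low in STZ replicate 1 and leptin replicate 6.

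**Figure D4:**
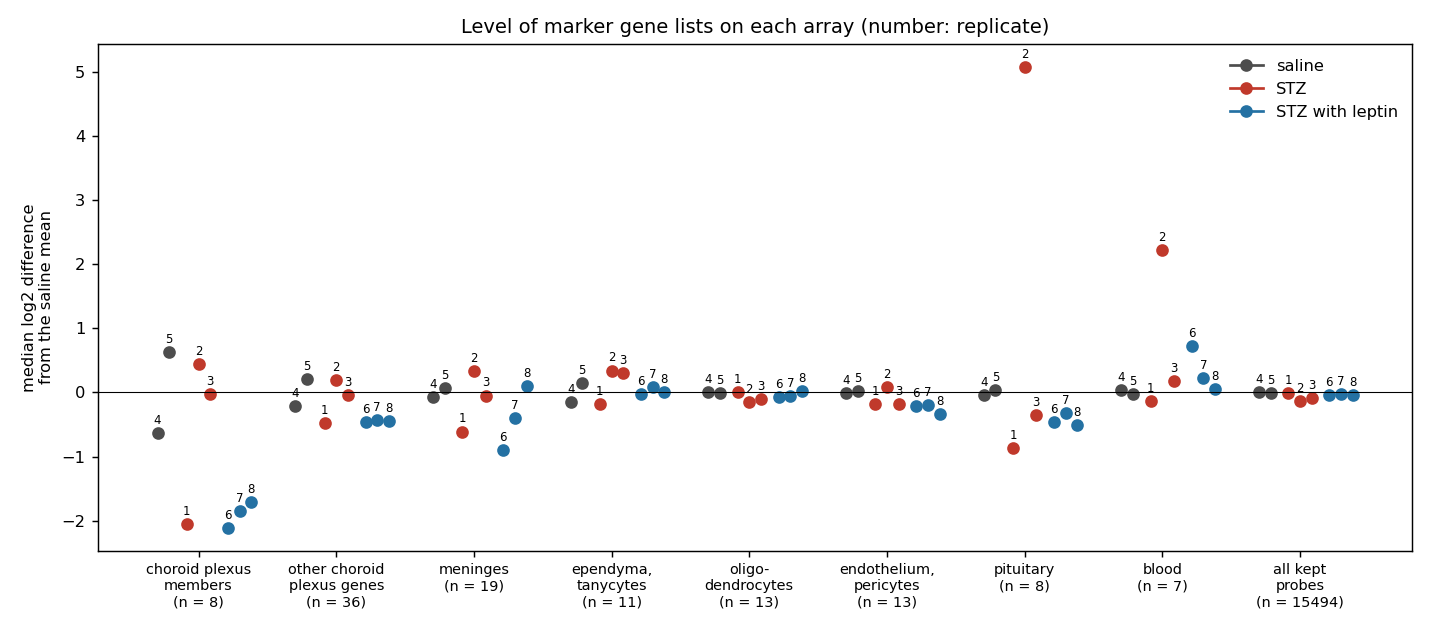
Median log2 difference from the saline mean (y axis) of each marker gene list (x axis, with its number of measured genes) on each array (points, numbered by replicate). The choroid plexus members lie at -2.05 in STZ replicate 1 and between -2.11 and -1.71 on the leptin arrays, and the pituitary list stands at 5.07 in STZ replicate 2.

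Lists of neighbouring tissues were set beside these genes, and their part in the results was not tested. The 8 choroid plexus genes had medians of -0.63 and 0.63 in saline, -2.05, 0.44 and -0.02 in STZ and -2.11, -1.85 and -1.71 with leptin. The median of the 11 measured genes of ependyma and tanycytes, the cells that line the ventricles, lay between -0.18 and 0.34 over the 8 arrays, that of the 13 oligodendrocyte genes between -0.15 and 0.03, and that of the 13 genes of endothelium and pericytes between -0.34 and 0.09. A median near 0 can hide single genes. In STZ replicate 1, 7 of the 11 ependymal genes lay below both saline arrays and 1 above both. Of the 15494 kept probes, 6357 lay below both there and 5803 above both. Single genes of the ependymal, oligodendrocyte and endothelial lists did pass in limma. In STZ against saline they were 9.09 percent of the ependymal and 7.69 percent of the oligodendrocyte list, against 4.29 percent of all kept probes. In leptin against STZ they were 9.09 and 15.4 percent, and 7.69 percent for endothelium and pericytes, against 5.62 percent. In leptin against saline, 7.69 percent of endothelium and pericytes passed, against 2.03 percent. A share of 7.69 or 9.09 percent is 1 gene. Vim, the filament protein vimentin of the ependymal list, rose in STZ by 1.99 ± 0.30 and fell with leptin against STZ by 1.57 ± 0.27 (SE, adjusted p = 0.0052 and 0.011 in limma). Of the oligodendrocyte genes, Enpp6, a choline phosphodiesterase, fell in STZ by 1.02 ± 0.15 and rose with leptin against STZ by 1.08 ± 0.13 (adjusted p = 0.0041 and 0.0021 in limma), and Opalin, a myelin membrane protein, rose with leptin against STZ by 1.23 ± 0.21 (0.011). Slco1c1, the thyroxine transporter of brain capillaries, fell with leptin by 1.12 ± 0.18 against STZ and by 1.33 ± 0.20 against saline (adjusted p = 0.0080 and 0.011 in limma). The median of the 8 pituitary genes lay at 5.07 in STZ replicate 2 and between -0.86 and 0.04 on the other arrays, and that of the 7 blood genes at 2.22 and between -0.14 and 0.73. In STZ replicate 2, high for both, the choroid plexus median was 0.44. In STZ replicate 3 and saline replicates 4 and 5 that median was -0.02, -0.63 and 0.63, and the pituitary median was -0.36, -0.04 and 0.04. Whether attached pituitary or blood bears on the choroid plexus values was not tested.

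The genes whose pattern was most like that of the 8 were found by Pearson's r between each of 10695 other genes and the mean z-score of the 8 genes over the 8 arrays. Because the arrays fall into a high and a low set for these genes, r mainly measures that separation, and it is given as a description. The highest were Tmem234 (r = 0.98), Rpa3 (0.98), Msx1 (0.97), Trpm3 (0.97), Cdkn1c (0.97), Nid2 (0.96), Kcne2 (0.96), Prdx2 (0.95), Il12a (0.95) and Nsun5 (0.95). Of these 10, Msx1, Cdkn1c and Kcne2 were on the list of other choroid plexus genes. Kcne2, a potassium channel subunit, had 7.07 and 8.39 in saline, 4.74, 7.16 and 7.13 in STZ and 4.86, 4.62 and 5.10 with leptin, and was detected on 4 arrays. Msx1, a homeobox factor, ranged by 2.48 log2 units and Trpm3, a cation channel, by 2.68. Tmem234, Prdx2 and Nsun5 followed the same arrays within ranges of 0.72, 0.62 and 0.61. Nid2 ran from 4.54 to 5.90 and Il12a from 4.76 to 5.51, so their low arrays lay near background. The most opposite were Oscp1 (r = -0.98), Gstm4 (-0.95), Arhgap22 (-0.95), Slc46a1 (-0.95) and Plekhb1 (-0.94), with ranges from 0.21 to 1.21 log2 units. Slc46a1, the proton-coupled folate transporter, had 7.86 and 7.69 in saline, 7.93, 7.68 and 7.83 in STZ and 8.09, 8.05 and 7.92 with leptin.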

How the data were processed

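The authors deposited bead-summary intensities without normalization, with a detection p-value for each probe and array, for 8 arrays and 25697 probes. The authors also deposited processed log2 values, whose columns all hold 1 set of values, as after quantile normalization. For both tables the software is not stated in the labels or headers. Probes were named through the platform's annotation table, with symbols updated by Entrez identifier: 23978 probes had 1 symbol, 1719 had none and 0 had several.

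Intensities were background-corrected, quantile-normalized and log2-transformed with neqc in limma 3.58.1 (R 4.3.3, offset 16), with negative controls inferred from the detection p-values. A probe was kept if 2 or more arrays detected it, at a p-value under 0.05. The 3 group means were estimated from the 8 arrays together (lmFit, eBayes), p-values were adjusted by Benjamini-Hochberg over the 15494 kept probes, and an adjusted p under 0.05 passed. The fit was tested on simulated data. The highest-signal probe stands for a gene. For a group where a probe was undetected on every array, folds are bounds for the background only and leave out the spread between arrays. The dim mean then takes, per array, the higher of the lowest detected signal and the probe's own. Group and replicate number come from the sample titles.

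The genes and lists were chosen with earlier results of these data known. Named were all probes of the 9 genes, the other choroid plexus genes that passed and the 8 of highest signal, the genes of a marker list that passed and up to 3 of highest signal, and the 10 genes most like and 5 least like the mean profile. Alternatives covered input values, background, normalization, filter, weights, variance model, block and each array left out.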

Additional observations from a re-analysis of the deposited data

How the results depend on the processing

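With 2 or 3 arrays a group, a wide spread on these genes and signals near background for Aqp1, Folr1 and the second Kl probe, differences of several-fold could fail the test. The number of the 12 probes that passed in limma was 0 in STZ against saline under every alternative. In leptin against STZ it was 8 with array weights and from 0 to 7 when each array was left out, and in leptin against saline 4 and from 0 to 4. All other alternatives gave 0 in both. Causes of these shifts were not tested. At an unadjusted p under 0.05, leptin against STZ had 4 probes with cyclic loess and 3 with a robust trend, against 6.

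Over single probes and alternatives, 572 results kept direction and side of the threshold, 24 newly passed and 34 changed sign. The main fit called 0 of the 12 probes in each comparison, so no call could be lost or change sign. In STZ against saline, the second Folr1 probe turned to 0.033 with the authors' processed values and 0.035 with no background correction, and Otx2 to 0.053 with cyclic loess. Array weights gave Ttr 0.10 and the Folr1 probes 0.48 and 0.61, and in leptin against STZ gave Igf2 -0.55. When each array was left out, STZ against saline ranged from -2.48 to 0.57 for Ttr, -0.97 to 0.76 and -1.02 to 0.95 for the Folr1 probes, -1.58 to 0.34 for Kl, -1.65 to 0.10, -1.01 to 0.25 and -0.70 to 0.22 for the Aqp1 probes, -0.29 to 0.71 for Clic6 and -0.20 to 0.12 for Otx2, and leptin against STZ from -0.58 to 0.48 for Igf2. Saline then held 1 array in 2 of the fits, assumed to vary like the other groups.

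The median level of the 8 genes in leptin replicates 6, 7 and 8 was -1.39, -1.16 and -1.08 with no background correction, -1.38, -1.16 and -1.08 with the authors' processed values, and -1.72, -1.64 and -1.39 over all 12 probes.

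Deviations from the group means were compared between same-numbered samples of different groups. Over 6 pairs r ran from -0.22 to 0.092, with 0 over 0.1, and the numbers were not taken as pairs. The 2 saline arrays mirror each other in such deviations and a number is repeated within STZ. The check therefore cannot show that pairing is absent. With the replicate block 0 of the 12 probes passed in any comparison. The block gave, in STZ against saline, Ttr 0.37, the Folr1 probes 0.65 and 0.82, Kl 0.33, Aqp1 probes 2 and 3 0.30 and 0.16, Otx2 0.23 and Igf2 0.39, and in leptin against STZ Igf2 -0.63.

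Over all kept probes, STZ against saline called 664, leptin against STZ 870 and leptin against saline 314. These became 1659, 1859 and 714 with array weights, 336, 474 and 211 with the replicate block, and 332, 552 and 183 with detection on all arrays. In STZ against saline 1025 were called without STZ replicate 1, 424 without STZ replicate 3, and 281 and 317 without saline replicates 4 and 5. In leptin against STZ 542 and 483 were called without STZ replicates 2 and 3, and 568 and 531 without leptin replicates 6 and 7. In leptin against saline 108 and 129 were called without saline replicates 4 and 5. The planned correlations of each gene with Ttr are not given, because the arrays fell into separate sets on Ttr.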
